A study of Mus with 8 samples.

Results

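The 10 genes described here encode nuclear receptors of 5 subfamilies: the PPARs (Pparg, Ppara and Ppard), the RXRs (Rxra and Rxrb), the LXRs (Nr1h2 and Nr1h3), the COUP-TFs (Nr2f1 and Nr2f2) and the estrogen-related receptor Esrra. They were chosen by name, and all 10 were found among the 24013 genes of the deposited count table and passed the filter on low counts. Nuclear receptors are transcription factors that bind DNA response elements, many of them under the control of a lipid or hormone ligand. PPARs and LXRs bind as heterodimers with an RXR, so that the RXR genes supply the common partner, while COUP-TFs are orphan receptors that mostly act as repressors and can occupy similar repeats. PPARγ, the product of Pparg, is the receptor that fat cell differentiation requires, and it is switched on in 3T3-L1 preadipocytes after the early C/EBP factors.

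The RNA came from 3T3-L1 cells, a mouse preadipocyte line, infected with a lentivirus and selected with puromycin. C cells carried a scrambled shRNA and P cells 1 shRNA against Prep1 (listed as Pknox1), a homeodomain transcription factor, so an effect of this shRNA other than on Prep1 cannot be told apart from that of Prep1 down-regulation. Cells were taken at confluence in growth medium with BCS (day −2) or 1 day after the change to a cocktail of 1 µM dexamethasone, 0.5 mM IBMX and 1 µg/ml insulin in medium with FBS (day 1), and the cocktail, the serum and the time in culture cannot be told apart. Each of the 4 conditions had 2 biological replicas, and the 8 libraries held between 20428816 and 27614353 counts.

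Levels are given as CPM, counts scaled by library size after TMM adjustment, where 3 counts in a library corresponded to between 0.107 and 0.160 CPM. Ratios are log2 ratios with a standard error (SE) from edgeR's quasi-likelihood test across 13339 genes and 8 libraries, with Benjamini-Hochberg adjusted p-values. A gene is said to have risen, fallen or been called at an adjusted p under 0.1 together with a ratio above 2 or below 0.5. With 2 libraries a side, the smallest p of an exact permutation test is 0.333, so none is given for single genes. Prep1 had between 26.4 and 38.1 CPM in the C libraries and between 17.2 and 23.8 CPM in the P libraries. Its log2 P/C ratio was −0.62 (SE 0.14, edgeR adjusted p = 0.0558) at day −2 and −0.65 (SE 0.14, edgeR adjusted p = 0.0575) at day 1, short of the ratio threshold at both. The 12 preadipocyte and fibroblast markers were all present, with over 3 counts in both replicas for 11 or 12 of them in each condition. At day −2 they summed to between 20548 and 21758 CPM in C cells and between 26270 and 81941 CPM in P cells. At day 1 the sums were between 32504 and 38271 CPM in C cells and between 23328 and 23338 CPM in P cells. The 9 fat cell markers summed to between 7.97 and 8.52 CPM in C cells at day −2. In P cells at day −2 they summed to between 28.4 and 42.2 CPM. At day 1 the fat cell sums were between 26.7 and 29.1 CPM in C cells and between 173 and 177 CPM in P cells. Single genes made up most of some fat cell sums. Lipe had between 24.6 and 26.9 CPM in C cells at day 1. Fabp4 had between 19.8 and 28.4 CPM in P cells at day −2. Of the 8 fat cell markers tested, 2 rose and 2 fell on induction of C cells (10.7% and 9.68% of all genes). In P cells 8 rose (7.65%), and at day −2, 3 were higher and 0 lower in P than in C cells (4.83% and 2.15%). In such bulk RNA, more cells of a type and more RNA per cell cannot be told apart.

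The replicas of 1 condition lay far apart. In P cells at day −2, the SD of the log2 difference between replicas was 0.80 over genes with a log2 CPM above 5, against 0.12 to 0.26 in the other 3 conditions. Of the 10 receptors, 9 were higher in replica 1 than in replica 2, and 4 of them differed by over 2-fold, Esrra by 4.08-fold, Nr1h3 by 2.91-fold, Rxrb by 2.60-fold and Ppard by 2.14-fold. Over all genes, 50.1% were higher in replica 1 and 27.6% were over 2-fold apart between these replicas. The SD alone does not say which replica deviates. Replica 1 had the lowest TMM factor of the 8 libraries, 0.84 against 1.02 in replica 2. By that factor alone it is called the library that stood apart below. Which replica deviates was not tested. In the other conditions only Ppara, at 1 to 4 counts per library in C cells, was over 2-fold apart between replicas. Many log2 ratios that use P cells at day −2 are therefore also given with each replica of that condition left out. There the remaining single library is assumed to vary like the other conditions. Where these omissions are not given, the ratio may depend on the replica in the same way.

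**Figure D1:**
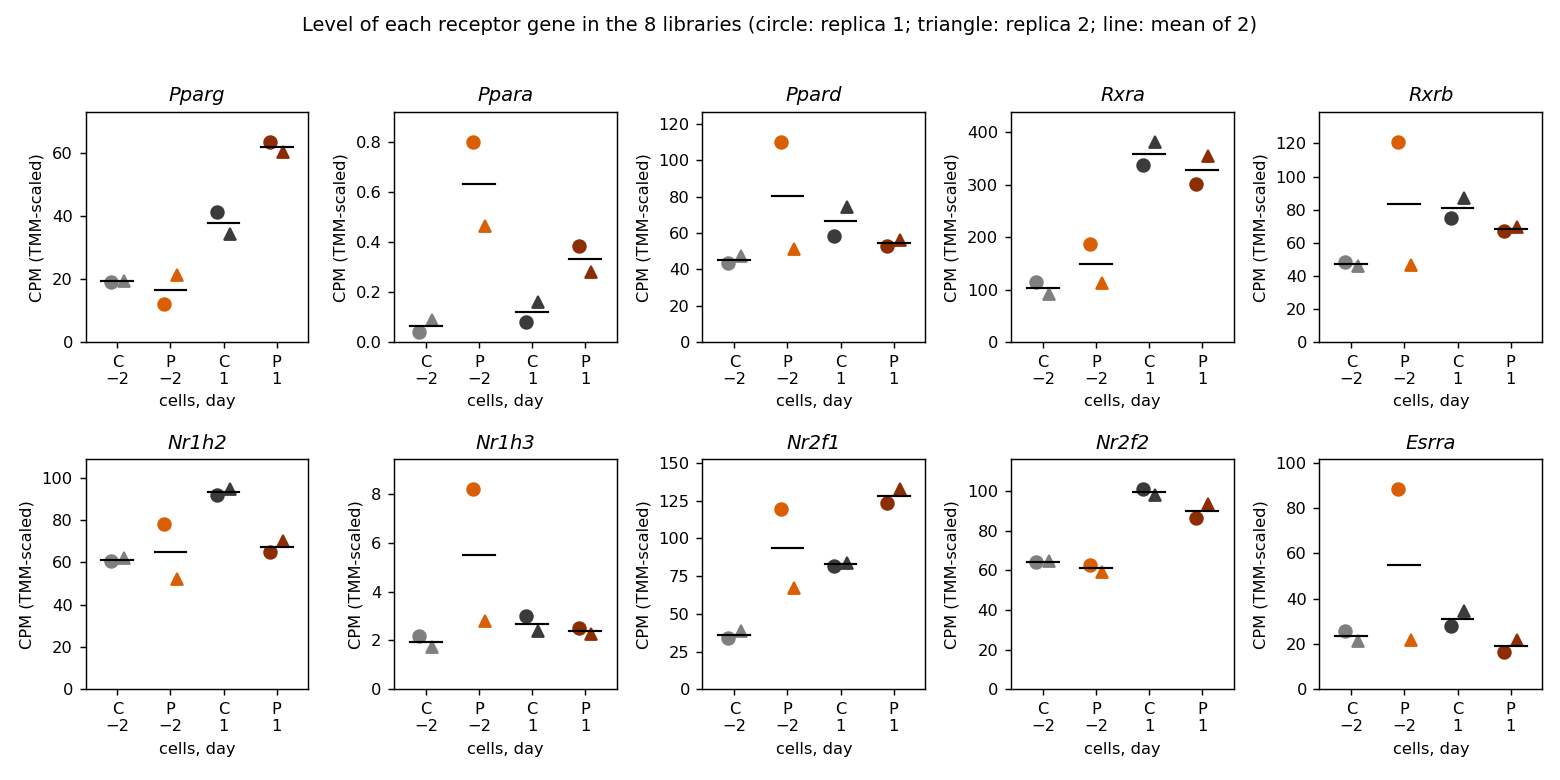
Each panel shows 1 receptor gene, with CPM on a linear vertical axis from 0 and the 4 conditions (C and P cells at day −2 and day 1) on the horizontal axis. Circles are replica 1, triangles replica 2 and lines the mean of both. Pparg is highest in P cells at day 1 (60.5 and 63.5 CPM), Rxra is at 302 CPM or more in all day 1 libraries, and the circle of P cells at day −2 lies far above its triangle for Ppard, Rxrb, Nr1h3 and Esrra.

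Of the PPAR genes, Pparg (NCBI gene 19016) rose in P cells on induction and was highest in induced P cells. Replicas 1 and 2 had 19.2 and 19.5 CPM in C cells at day −2 and 12.1 and 21.2 CPM in uninduced P cells. Induced replicas had 41.2 and 34.2 CPM in C cells and 63.5 and 60.5 CPM in P cells. Both day 1 conditions lay above all day −2 libraries, and both P libraries at day 1 lay above both C libraries, while at day −2 the P libraries lay on either side of the C libraries. From day −2 to day 1 the level rose 3.71-fold in P cells (log2 ratio 1.89, SE 0.27, edgeR adjusted p = 0.00433). Without replica 1 of uninduced P cells this log2 ratio was 1.54 and without replica 2 it was 2.36. In C cells the 1.94-fold increase (log2 ratio 0.96, SE 0.26, edgeR adjusted p = 0.0369) passed the adjusted p but not the ratio threshold. The response of P cells was larger than that of C cells by 0.93 on the log2 scale (SE 0.37, edgeR adjusted p = 0.324), a difference that did not pass. At day 1 the P/C ratio was 1.64-fold (log2 ratio 0.72, SE 0.26, edgeR adjusted p = 0.228) in the fit of all 8 libraries. With the 4 day 1 libraries alone, whose replicas were closer, the log2 ratio was the same (0.72) and the edgeR adjusted p was 0.00720, still under the ratio threshold. The gene counts sum the transcripts of Pparg, so its isoforms were not told apart.

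Ppara (NCBI gene 19013), the PPAR of fatty acid oxidation in liver, was close to the detection limit. The uninduced C libraries held 1 and 2 counts and the uninduced P libraries 15 and 13, and after induction C cells held 2 and 4 counts and P cells 9 and 6. Both P conditions lay above both C conditions in every library. At day −2 the summed counts were 28 in P and 3 in C cells, a ratio of 9.50 after scaling with a 95% exact interval of 2.94 to 48.8 for counting error alone. This was called by edgeR (adjusted p = 0.05925) but lost in 10 of the 16 alternative analyses that gave a value, with edgeR adjusted p = 0.131 under a replicate block. Of the 8 libraries, only replica 2 of uninduced P cells could be left out without loss of the call, and the edgeR adjusted p ranged from 0.0125 to 0.400 over the alternatives. At day 1 the summed counts were 15 and 6 (ratio 2.81, 95% exact interval 1.03 to 8.85, edgeR adjusted p = 0.389). On induction of P cells the log2 ratio was −0.89 (SE 0.60, edgeR adjusted p = 0.322). It was −0.48 without replica 1 of uninduced P cells and −1.24 without replica 2. The log2 P/C ratio before induction was 2.79 without replica 1 of P cells and 3.55 without replica 2.

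Ppard (NCBI gene 19015), the broadly expressed PPAR, was called by edgeR in no comparison of all 8 libraries. Its level was 43.3 and 47.6 CPM in C cells and 110 and 51.2 CPM in P cells at day −2, then 58.4 and 74.5 CPM in C cells and 53.0 and 56.1 CPM in P cells at day 1. The high value was that of the library that stood apart. The log2 P/C ratio at day −2 was 0.82 (SE 0.34, edgeR adjusted p = 0.188) and became 0.18 without replica 1 of P cells and 1.27 without replica 2.

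Rxra (NCBI gene 20181), the main RXR partner of PPARγ in fat cells, rose on induction in C and in P cells. Its level at day −2 was 115 and 92.5 CPM in C cells and 187 and 113 CPM in P cells. The day 1 libraries had 337 and 381 CPM in C cells and 302 and 355 CPM in P cells. All day 1 libraries lay above all day −2 libraries, and C and P cells overlapped in their ranges at day 1 and at day −2. The increase was 3.45-fold in C cells (log2 ratio 1.79, SE 0.27, edgeR adjusted p = 0.00401) and 2.19-fold in P cells (log2 ratio 1.13, SE 0.26, edgeR adjusted p = 0.0254). Without replica 1 of P cells at day −2 the log2 ratio in P cells was 1.53, and without replica 2 it was 0.82, under the ratio threshold. The call in P cells was also lost without replica 2 of P cells at day 1 (edgeR adjusted p = 0.160) and in the fit of these 2 conditions alone (edgeR adjusted p = 0.128). The 2 responses differed by −0.66 on the log2 scale and did not pass the test of the difference.

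Rxrb (NCBI gene 20182), a widely expressed RXR, was called by edgeR in no comparison of all 8 libraries. It had 48.5 and 45.9 CPM in C cells at day −2, 121 and 46.3 CPM in P cells at day −2, 75.2 and 87.3 CPM in C cells at day 1, and 66.9 and 69.3 CPM in P cells at day 1. Apart from the library that stood apart, the day 1 libraries were the higher ones. The log2 P/C ratio before induction was 0.82 (SE 0.39, edgeR adjusted p = 0.239), and it was −0.02 without replica 1 of P cells and 1.35 without replica 2. The third RXR gene, Rxrg, had between 0 and 6 counts per library and was not tested.

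The LXR genes, receptors for oxysterols that control cholesterol export, were not called by edgeR in any comparison of all 8 libraries. Nr1h2 (LXRβ, NCBI gene 22260) had 60.4 and 62.0 CPM in C cells and 77.9 and 52.0 CPM in P cells at day −2. At day 1 it had 91.7 and 94.4 CPM in C cells against 64.8 and 69.8 CPM in P cells. The induced C libraries were thus the highest of the 8, and the P libraries at day 1 lay within the range of those at day −2. In C cells the log2 ratio on induction was 0.60 (SE 0.20, edgeR adjusted p = 0.0683). In P cells it was 0.05 (SE 0.20, edgeR adjusted p = 0.871). This value was 0.36 without replica 1 of uninduced P cells and −0.20 without replica 2. At day 1, P relative to C cells gave −0.47 (SE 0.20, edgeR adjusted p = 0.318) in the fit of all libraries and −0.46 (edgeR adjusted p = 0.0159) with the day 1 libraries alone.

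Nr1h3 (LXRα, NCBI gene 22259) had few counts, 39 to 154 per library. Its levels were 2.19 and 1.73 CPM in C cells and 8.20 and 2.82 CPM in P cells at day −2, then 3.00 and 2.39 CPM in C cells and 2.52 and 2.29 CPM in P cells at day 1. Only the P replica that stood apart was over 3.00 CPM. The log2 P/C ratio at day −2 was 1.48 (SE 0.50, edgeR adjusted p = 0.134), 0.53 without that library and 2.05 without replica 2. DESeq2 called this gene higher in P cells at day −2 (log2 ratio 1.48, DESeq2 adjusted p = 0.0564) and lower on induction of P cells (−1.21, DESeq2 adjusted p = 0.0902), where edgeR gave −1.18 (SE 0.49, adjusted p = 0.134). In a later genome build the gene overlaps Acp2, which had 779 to 1914 counts per library, by 18 bases.

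Nr2f1 (COUP-TFI, NCBI gene 13865) rose in C cells on induction and was higher in P than in C cells before induction. It had 34.3 and 38.3 CPM in C cells and 119 and 67.3 CPM in P cells at day −2. The day 1 libraries had 81.8 and 83.8 CPM in C cells and 123 and 132 CPM in P cells. The uninduced C libraries were the lowest 2 of the 8 and the induced P libraries the highest 2, and the uninduced P libraries lay on either side of the induced C libraries. At day −2 the level in P cells was 2.57 times that in C cells (log2 ratio 1.36, SE 0.26, edgeR adjusted p = 0.03365). Without replica 1 of P cells the log2 ratio was 0.90 (edgeR adjusted p = 0.00115), under the ratio threshold, and without replica 2 it was 1.71. The call was also lost without replica 1 (edgeR adjusted p = 0.282) or replica 2 (edgeR adjusted p = 0.234) of C cells at day −2, and with these 2 conditions alone (edgeR adjusted p = 0.232). Induction of C cells gave a 2.28-fold increase (log2 ratio 1.19, SE 0.26, edgeR adjusted p = 0.0174), which did not pass without replica 1 (edgeR adjusted p = 0.131) or replica 2 (edgeR adjusted p = 0.1003) of C cells at day −2. In P cells induction gave 0.46 (SE 0.26, edgeR adjusted p = 0.242). This was 0.92 without replica 1 of uninduced P cells and 0.11 without replica 2. At day 1 the log2 P/C ratio was 0.63 (SE 0.26, edgeR adjusted p = 0.295) in the fit of all libraries and 0.63 (edgeR adjusted p = 0.00476) with the day 1 libraries alone.

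Nr2f2 (COUP-TFII, NCBI gene 11819) had close replicas in every condition. It had 64.0 and 64.8 CPM in C cells and 62.9 and 59.2 CPM in P cells at day −2, and 101 and 97.9 CPM in C cells and 86.6 and 93.5 CPM in P cells at day 1. No pair of conditions overlapped, in the order induced C, induced P, uninduced C and uninduced P cells. Induction passed the adjusted p alone in C cells (log2 ratio 0.63, SE 0.13, edgeR adjusted p = 0.0136) and in P cells (log2 ratio 0.56, SE 0.13, edgeR adjusted p = 0.0245). In P cells induction gave 0.60 without replica 1 of uninduced P cells and 0.53 without replica 2. P relative to C cells gave −0.08 (SE 0.13, edgeR adjusted p = 0.702) at day −2. Under the same omissions this was −0.11 and −0.04. In the later build Nr2f1 and Nr2f2 each overlap a noncoding gene with 14 to 117 counts per library, and the use of the strand in the counting is not given in the sources used here.

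Esrra (NCBI gene 26379), an orphan receptor that works with PGC-1 coactivators on mitochondrial genes, had the largest difference between replicas. Its level was 25.8 and 21.3 CPM in C cells and 88.3 and 21.6 CPM in P cells at day −2, then 27.8 and 34.5 CPM in C cells and 16.6 and 21.9 CPM in P cells at day 1. Apart from the library that stood apart, the 7 others lay between 16.6 and 34.5 CPM. The log2 P/C ratio at day −2 was 1.22 (SE 0.57, edgeR adjusted p = 0.233) with both P replicas, −0.11 without replica 1 and 1.90 without replica 2. On induction of P cells it was −1.51 (SE 0.58, edgeR adjusted p = 0.109), −0.18 without replica 1 and −2.19 (edgeR adjusted p = 2.23e-05) without replica 2. At day 1 the log2 P/C ratio was −0.70 (SE 0.57, edgeR adjusted p = 0.676) in the fit of all libraries and −0.69 (edgeR adjusted p = 0.0305) with the day 1 libraries alone.

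**Figure D2:**
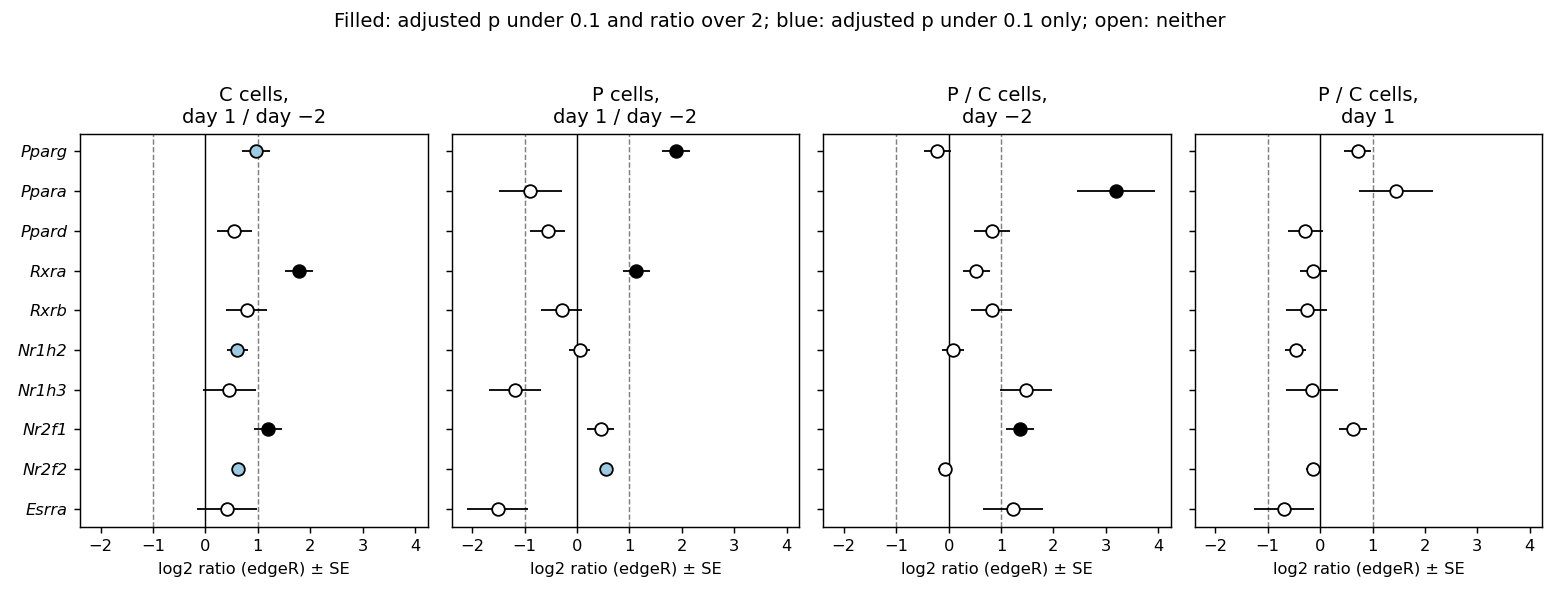
Points are log2 ratios of the 10 receptors from edgeR with their standard errors, 1 panel for each of the 4 comparisons, and dashed lines mark ratios of 2 and 0.5. Black points were called, blue points passed the adjusted p alone and open points neither, and Ppara in C cells is not drawn because of its low counts. Black points are Rxra and Nr2f1 in C cells on induction, Pparg and Rxra in P cells on induction, and Ppara and Nr2f1 in the P/C comparison at day −2.

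Set side by side over the 10 receptors, induction of C cells called 2 (Rxra and Nr2f1, both higher), where 20.4% of all genes tested were called, and 10.7% were called higher. By the adjusted p alone it was 5 of 10, all higher, against 35.6% of all genes in either direction. In a fit of the C libraries alone, Rxra and Nr2f1 were again the receptors called, against 24.3% of all genes. There Pparg, Ppard, Rxrb, Nr1h2, Nr2f2 and Esrra passed the adjusted p alone, all higher, and Nr1h3 did not. The share of all genes that passed the adjusted p in that fit is not given. The libraries of the 2 days did not overlap for 9 of 10 receptors, against 77.7% of all genes, and the median log2 ratio was 0.71 (0.61 with Ppara at its bound of 3 counts per library) against −0.01 over all genes. Induction of P cells called 2 (Pparg and Rxra, both higher), with 18% of all genes called and 7.65% higher, and its median was −0.12 against 0.02. By the adjusted p alone it was 3 of 10 (31.4% of all genes), and the libraries did not overlap for 6 of 10, against 60.6% of all genes. In P cells, Rxra and Pparg kept a positive ratio and Esrra, Nr1h3 and Ppara a negative one with either day −2 replica left out, whereas Ppard, Rxrb and Nr1h2 changed sign. Nr2f1 and Nr2f2 stayed positive. Without replica 2 the calls were Pparg higher and Ppard, Nr1h3 and Esrra lower, with 35.8% of all genes called.

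Before induction, 2 receptors differed between P and C cells by both thresholds, Ppara and Nr2f1, both higher in P cells, against 6.98% of all genes in either direction and 4.83% higher. The same 2 passed the adjusted p alone, against 11.3% of all genes. The median log2 ratio was 0.82 against 0.01 over all genes, and the libraries did not overlap for 5 of 10, against 53.8% of all genes. Without replica 1 of P cells the log2 ratios of the other 8 receptors lay between −0.23 and 0.53, and without replica 2 they lay between −0.68 and 2.05. The number called was 0 without replica 1, with 6.49% of all genes called, and 6 without replica 2, with 31.3% of all genes called (Ppara, Ppard, Rxrb, Nr1h3, Nr2f1 and Esrra, all higher). At day 1, 0 receptors were called, against 4.06% of all genes, and 0 passed the adjusted p, against 6.15%. At an unadjusted p under 0.05 there were 2 (16.2% of all genes), and DESeq2 called 0 (5.41% of all genes). The libraries did not overlap for 8 of 10 receptors, against 60.5% of all genes, and the median log2 ratio was −0.15 against 0.01. With the day 1 libraries alone, Pparg, Nr2f1, Nr1h2 and Esrra passed the adjusted p, the first pair higher in P cells and the second pair lower, and none passed the ratio threshold. In that fit 27.7% of all 12564 genes tested passed the adjusted p and 7.16% were called.

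The interaction of cells and day, that is the response of P cells minus that of C cells, passed for 0 receptors, against 2.37% of all genes. At an unadjusted p under 0.05 there was 1 (14.4% of all genes), and by DESeq2 0 passed (6.97% of all genes). The estimate was positive for Pparg (0.93) and negative for the other 9, from −0.07 for Nr2f2 to −1.92 for Esrra. Without replica 2 of P cells at day −2, 8 receptors passed, Pparg higher and 7 lower, where 60% of all genes passed. Without replica 1, 0 passed, where 10.6% of all genes did.

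**Figure D3:**
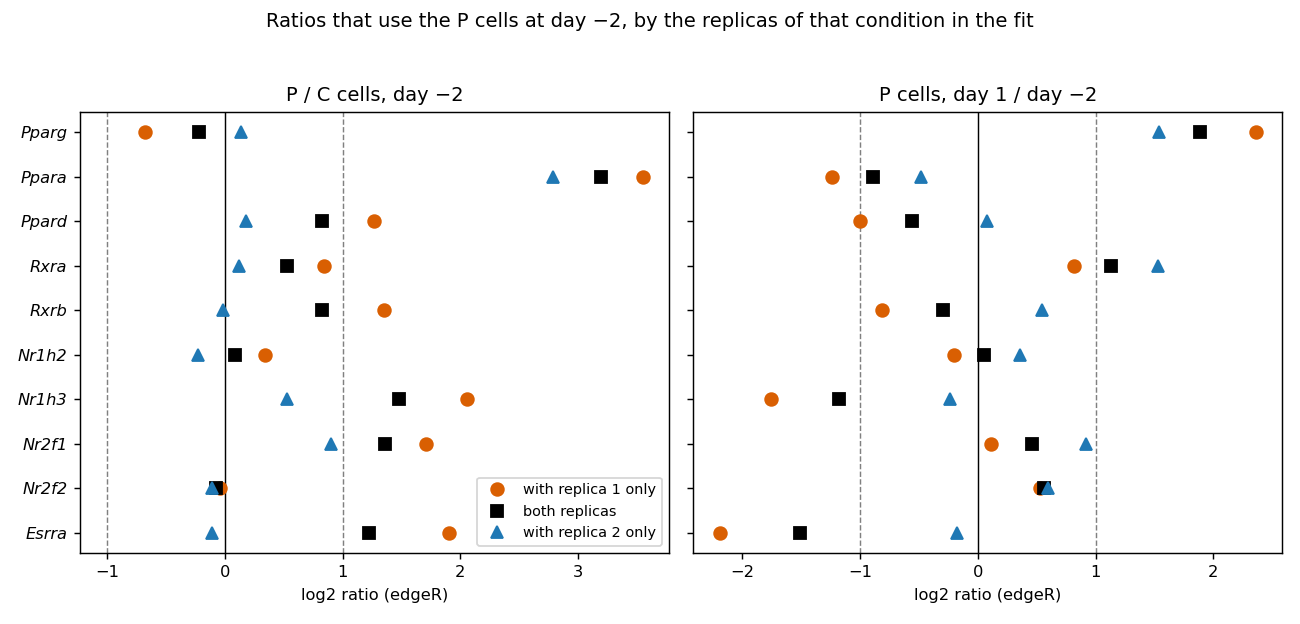
Horizontal positions are log2 ratios of the 10 receptors from edgeR, left for the P/C ratio at day −2 and right for P cells on induction, with both replicas of P cells at day −2 (squares), replica 1 only (circles) or replica 2 only (triangles). Esrra moves most, from 1.90 with replica 1 only to −0.11 with replica 2 only in the left panel, while Nr2f2 stays between −0.11 and −0.04.

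The order of the 4 conditions differed between receptors. C cells at day −2 had the lowest mean for Ppara, Ppard, Rxra, Rxrb, Nr1h2, Nr1h3 and Nr2f1, and P cells at day 1 the highest for Pparg and Nr2f1. P cells at day −2 had the highest mean for Ppara, Ppard, Rxrb, Nr1h3 and Esrra, but for Ppard, Rxrb, Nr1h3 and Esrra their libraries overlapped those of C cells at day 1, the next condition. Over the 8 libraries and 10001 genes with a mean of at least 5 CPM, the genes with the highest Pearson correlation of log2 CPM were Adgrg2, Ebf3 and Tor1b for Pparg (r between 0.992 and 0.995) and Jade2, Tom1l2 and Bag5 for Rxra (r between 0.994 and 0.996). They were Bsdc1, Col11a1 and Gpatch11 for Nr2f1 (r between 0.990 and 0.997) and Zfp787, Dbnl and Arf5 for Esrra (r between 0.984 and 0.989). These values are a description over 8 points that share the libraries, their depth and the difference between the replicas of P cells at day −2.

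The other genes of the receptor pathways were taken from lists written by hand. Among 25 of 28 PPARG target genes of the fat cell that passed the filter, 14 rose and 0 fell on induction of P cells, whereas 5 rose and 6 fell in C cells. Of all genes, 7.65% rose and 10.4% fell in P cells, and 10.7% rose and 9.68% fell in C cells. The median log2 ratio was 1.56 in P cells, or 1.46 with genes at 3 counts or fewer set to their bound, and 0.01 in C cells. At day 1, 13 were higher and 0 lower in P than in C cells (median 1.60, or 1.41 with bounds), where 1.83% of all genes were called higher. Gpd1, the glycerol phosphate dehydrogenase of triglyceride synthesis, had 2.88 and 2.55 CPM in C cells and 49.97 and 58.6 CPM in P cells at day 1 (log2 ratio 4.32, SE 0.24, edgeR adjusted p = 0.000855). Adipoq, the adipokine adiponectin, had 3 and 1 counts in C cells and 453 and 345 counts in P cells at day 1. Cidec, a lipid droplet protein, had 15 and 11 counts in C cells and 627 and 556 counts in P cells. Pparg itself had a 1.64-fold P/C ratio in the same comparison (edgeR adjusted p = 0.228) and was not called. The count of 13 was 8 or 9 with any 1 of the 4 day 1 libraries left out, where between 0.446% and 1.18% of all genes were called. On induction of P cells 13 rose and 1 fell without replica 1 of uninduced P cells, 16 rose and 1 fell without replica 2, and 8 or 9 rose without a P library of day 1. In C cells the 6 that fell became 1 to 3 with any 1 of the C libraries left out. Of the 9 fat cell markers, 8 are in this list, and their part in the result was not tested.

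Before induction 7 PPARG targets were higher and 1 lower in P than in C cells (median 0.34), where 4.83% of all genes were higher and 2.15% lower. Fabp4, the fatty acid binding protein of fat cells, had 2.07 and 2.35 CPM in C cells and 28.4 and 19.8 CPM in P cells (log2 ratio 3.44, SE 0.30, edgeR adjusted p = 0.00242). Lpl, the lipoprotein lipase, had 58.6 and 57.7 CPM against 183 and 200 CPM (log2 ratio 1.72, SE 0.14, edgeR adjusted p = 0.00200). Without replica 1 and without replica 2 of P cells the log2 ratio was 3.17 and 3.68 for Fabp4 and 1.79 and 1.65 for Lpl. The count of 8 calls was 14 without replica 2 of P cells (31.3% of all genes called), 5 with a replicate block (4.48%), 3 without either C library of day −2 and 3 with these 2 conditions alone (0.637%). Pparg was at a log2 ratio of −0.21 (SE 0.26, edgeR adjusted p = 0.602) in this comparison. For Pparg it was 0.14 without replica 1 of P cells and −0.68 without replica 2, so its sign depended on the replica. On induction Gpd1 increased more in P than in C cells (difference of the responses 3.26, SE 0.34, edgeR adjusted p = 0.0110). For Fabp5 the difference was also positive (1.89, SE 0.20, edgeR adjusted p = 0.0110), but as a smaller decrease in P cells. Its mean went from 108 to 15.3 CPM in C cells and from 150 to 78.9 CPM in P cells. The responses of P and C cells differed for 8 targets, 7 of them with a positive difference, against 2.37% of all genes. That count was 13 without replica 1 of P cells at day −2 (10.6% of all genes passed), 20 without replica 2 (60% of all genes passed) and 5 with a replicate block (0.877%). It was between 1 and 5 with any 1 of the other 6 libraries left out.

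Among 24 of 26 regulators of Pparg, 9 rose and 1 fell on induction of C cells (median 0.94), where 10.7% of all genes rose and 9.68% fell. In P cells 5 rose and 1 fell (median 0.35), where 7.65% of all genes rose and 10.4% fell. Klf9, a Krüppel-like factor, rose in both, from 21.0 and 19.4 to 82.5 and 83.8 CPM in C cells (log2 ratio 2.04, SE 0.14, edgeR adjusted p = 0.000233) and by 2.07 on the log2 scale in P cells (2.15 and 2.00 without replica 1 and without replica 2 of uninduced P cells). At day −2, 7 were higher and 0 lower in P cells (median 0.24), where 4.83% of all genes were higher and 2.15% lower. Cebpa, the C/EBP factor that sustains Pparg in fat cells, had 0.757 and 0.841 CPM in C cells and 7.51 and 3.39 CPM in P cells (log2 ratio 2.75, SE 0.41, edgeR adjusted p = 0.0131). Cebpd, an early C/EBP factor, had 6.65 and 9.03 CPM against 64.5 and 32.8 CPM (log2 ratio 2.63, SE 0.34, edgeR adjusted p = 0.00819). Without replica 1 and without replica 2 of P cells the log2 ratio was 2.09 and 3.22 for Cebpa and 2.08 and 3.04 for Cebpd. The 7 calls became 0 without replica 1 and 1 without replica 2 of uninduced C cells, and 3 without either P library of day 1. None was made when these 2 conditions were fitted alone, where 0.637% of all genes were called. At day 1, Ebf1, an early B-cell factor that acts in adipogenesis, was higher in P cells (log2 ratio 1.18, SE 0.22, edgeR adjusted p = 0.0376) and its relative Ebf2 lower (−1.32, SE 0.30, edgeR adjusted p = 0.0689). Neither was called with any 1 of the C libraries or of the day 1 P libraries left out.

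Of 23 of 24 coactivators and corepressors tested, 2 were called on induction of C cells (20.4% of all genes), 2 in P cells (18%), 1 at day −2 (6.98%) and 2 at day 1 (4.06%). Nrip1, a corepressor of nuclear receptors known from fat, rose in P cells from 16.7 and 19.9 to 62.6 and 66.6 CPM (log2 ratio 1.82, SE 0.17, edgeR adjusted p = 0.000904) and was higher in P than in C cells at day 1 (1.00, SE 0.17, edgeR adjusted p = 0.0263). Its increase was 1.69 without replica 1 and 1.96 without replica 2 of uninduced P cells. At day 1 the list held 0 or 1 calls with any 1 of the 8 libraries left out. Helz2, a coactivator of PPARs, rose in C cells from 53.3 and 50.5 to 228 and 291 CPM (log2 ratio 2.32, SE 0.19, edgeR adjusted p = 0.000399).

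The LXR targets, 12 of 18 tested, held 3 genes that rose and 1 that fell in C cells (median 0.54, against 20.4% of all genes called), and 2 that rose and 2 that fell in P cells (median 0.19, against 18%). Abca1, the cholesterol exporter, went from 2.71 and 2.30 to 140 and 158 CPM in C cells (log2 ratio 5.89, SE 0.23, edgeR adjusted p = 6.16e-05) and from 2.55 and 3.57 to 62.0 and 64.7 CPM in P cells (log2 ratio 4.36, SE 0.22, edgeR adjusted p = 0.000129). The response of P cells minus that of C cells was −1.53 on the log2 scale (SE 0.28, edgeR adjusted p = 0.0651), with −1.77 and −1.26 without replica 1 and without replica 2 of uninduced P cells. This test called 2 genes of the list, against 2.37% of all genes, and fewer with any 1 of the other 6 libraries left out. At day 1, Abca1, Arl4c and Scd1 were lower and Abcg1, another cholesterol exporter, was higher in P than in C cells. Of all genes, 2.23% were lower and 1.83% higher. Arl4c, a small GTPase, had 42.9 and 52.1 CPM in C cells against 9.18 and 7.70 CPM in P cells (log2 ratio −2.49, SE 0.29, edgeR adjusted p = 0.00788). Before induction, Apod and Abcg1 were higher and 0 lower in P cells, where 4.83% of all genes were higher and 2.15% lower. With these 2 conditions alone 0 were called, against 0.637% of all genes. At day 1 at most 1 of the list was called with any 1 of the day 1 libraries left out. The list holds Nr1h3 itself.

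Of the fatty acid oxidation targets of PPARA and PPARD, 18 of 26 were tested, and 3 rose and 0 fell in C cells on induction (median 0.41), where 10.7% of all genes rose and 9.68% fell. These were Cpt2, Acadvl and Acadm, enzymes of mitochondrial β-oxidation, with log2 ratios of 1.24 (SE 0.15, edgeR adjusted p = 0.00163), 1.09 (SE 0.14, edgeR adjusted p = 0.00235) and 1.32 (SE 0.29, edgeR adjusted p = 0.0178). In P cells, Acadm rose (1.51, SE 0.29, edgeR adjusted p = 0.0138) and Acot1, an acyl-CoA thioesterase, fell (−1.31, SE 0.31, edgeR adjusted p = 0.0282). Without replica 1 and without replica 2 of uninduced P cells these values were 1.10 and 2.07 for Acadm and −1.01 and −1.57 for Acot1. At day 1, Cpt1a, the enzyme that commits fatty acids to oxidation, was lower in P cells, with 116 and 108 CPM in C cells and 52.5 and 49.0 CPM in P cells (log2 ratio −1.14, SE 0.16, edgeR adjusted p = 0.0140). It was not called with any 1 of the day 1 libraries left out.

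Of 21 of 22 mitochondrial targets of ESRRA, a list that holds Esrra itself, edgeR called 0 on induction of C cells (20.4% of all genes) and 0 on induction of P cells (18% of all genes). Atp5g1, a subunit of the ATP synthase, was lower in P than in C cells at day −2 (109 and 114 against 20.01 and 25.5 CPM, log2 ratio −2.29, SE 0.18, edgeR adjusted p = 0.00200) and at day 1 (−1.55, SE 0.18, edgeR adjusted p = 0.00790). At day −2 it was −2.12 without replica 1 and −2.48 without replica 2 of P cells, and at day 1 it was not called without a P library of that day. Atp5g1 was the 1 gene of the list called in either comparison, against 6.98% of all genes at day −2 and 4.06% at day 1. It has closely related copies, and whether the counting split reads between them was not tested.

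**Figure D4:**
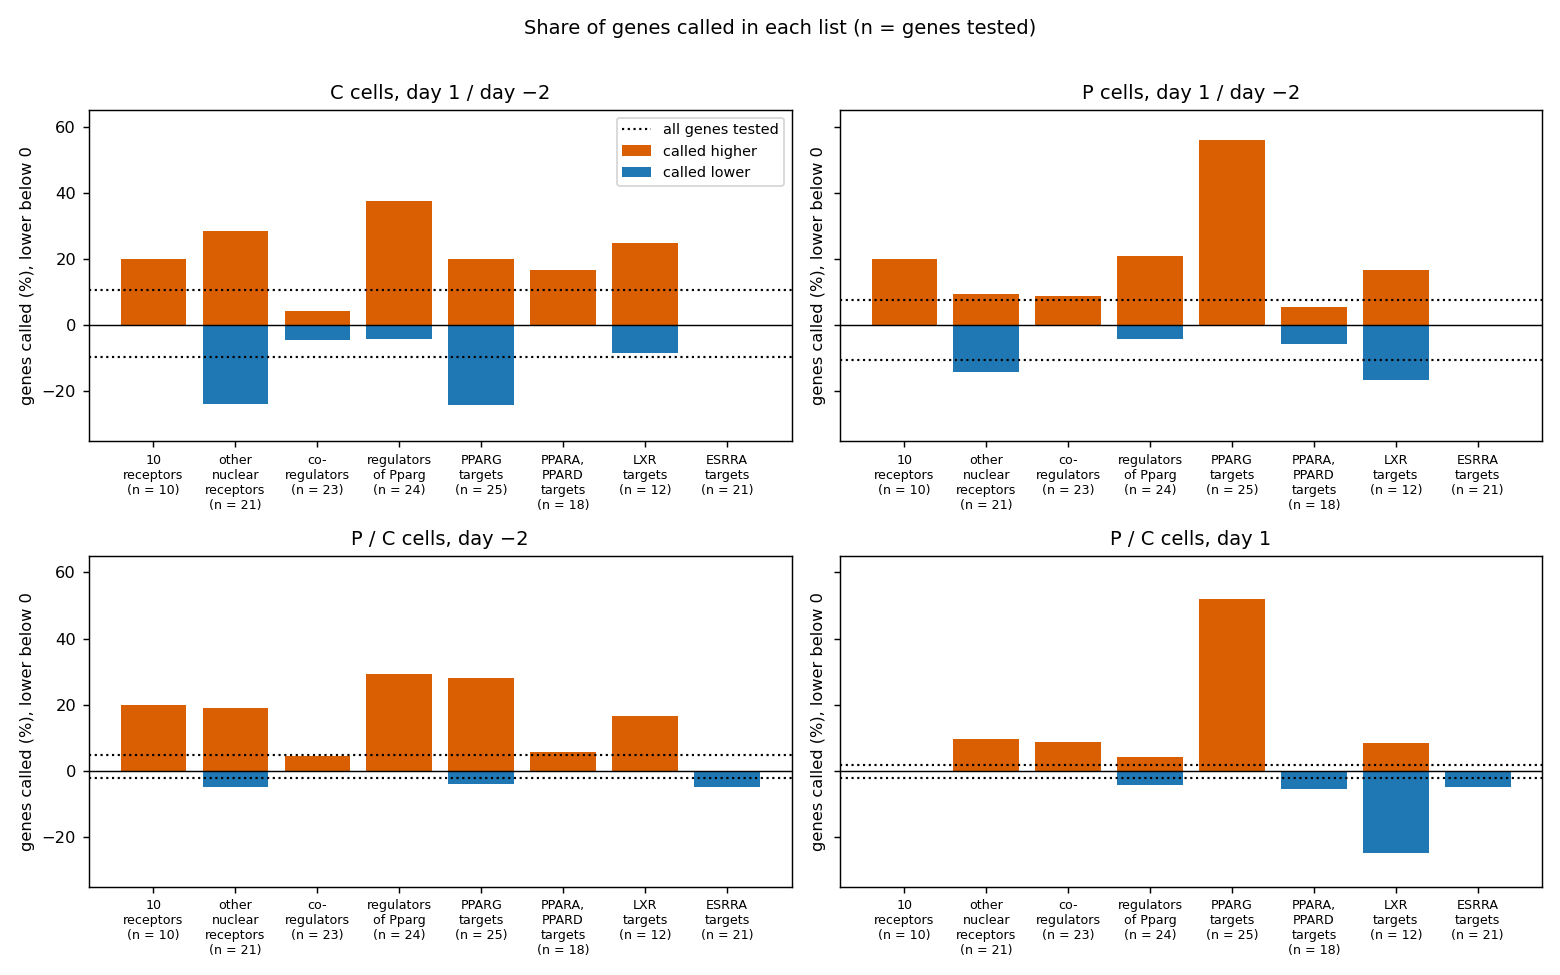
Bars show the percentage of tested genes called higher (above 0) and lower (below 0) in the 10 receptors and in 7 lists of genes of their pathways, 1 panel for each of the 4 comparisons. Dotted lines give the percentages over all 13339 genes. The PPARG targets stand at 14 of 25 higher in P cells on induction and 13 of 25 in the P/C comparison at day 1, where 0 of the 10 receptors were called.

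Of the 39 other nuclear receptors, 21 passed the filter. On induction 6 rose and 5 fell in C cells (median 0.03, against 20.4% of all genes called) and 2 rose and 3 fell in P cells (median 0.37, against 18%). At day −2, 4 were higher and 1 lower in P cells (median 0.20, against 6.98%). Vdr, the vitamin D receptor and another RXR partner, had 49.1 and 45.9 CPM in C cells and 144 and 126 CPM in P cells at day −2. At day 1 it had 481 and 513 CPM in C cells and 274 and 242 CPM in P cells. P cells were thus above C cells before induction and below them after it, without overlap. The log2 ratio was 3.39 (SE 0.16, edgeR adjusted p = 7.08e-05) on induction of C cells, 1.51 (SE 0.15, edgeR adjusted p = 0.00341) for P relative to C cells before induction, and −2.45 (SE 0.21, edgeR adjusted p = 0.00519) for the difference between the responses. Without replica 1 of uninduced P cells the P/C value was 1.42 and the difference −2.39, and without replica 2 they were 1.59 and −2.54. Nr4a1, an orphan receptor of the immediate early response, differed in its response in the same direction (−2.01, SE 0.31, edgeR adjusted p = 0.0388), with −1.75 and −2.25 under the same omissions. The responses differed for 3 of these receptors, against 2.37% of all genes, and for fewer with any 1 of the other 6 libraries left out. Rora, the retinoid-related orphan receptor alpha, was higher in P cells at day −2 (log2 ratio 2.34, SE 0.27, edgeR adjusted p = 0.00523) and at day 1 (1.77, SE 0.25, edgeR adjusted p = 0.0155). At day −2 it was 2.55 without replica 1 and 2.09 without replica 2 of P cells, and at day 1 it was not called with any 1 of the day 1 libraries left out.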

How the data were processed

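RNA-seq was performed on the Ion Torrent system. The authors removed artifacts with FASTX-Toolkit, aligned the reads to mm9 with TopHat2 2.0.9 and deposited unnormalized counts per NCBI gene of the refGene annotation. How reads shared between genes were counted is not given in the sources used here. Symbols came from RefSeq (GRCm38.p6), used for names and neighbours only, and matched 23929 of 24013 genes.

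The test was run with edgeR 4.0.16 under R 4.3.3 (TMM scaling, filterByExpr, a quasi-likelihood test, two-sided, with 1 mean per condition and Benjamini-Hochberg adjustment). CPM for correlations had a prior count of 2. Intervals and the floor of 3 counts cover counting error only. Replica numbers came from the labels, and they are not stated to pair the cultures. Alternatives were DESeq2 1.42.0, other scalings, filters and thresholds, 2-condition fits, replicate blocks and each library left out.

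The receptors and lists were chosen with earlier results of these data known. From each list 3 called genes in each direction could be named, those of lowest p with a mean of at least 50 counts, and for each receptor its 3 most correlated genes, its overlapping genes and Prep1.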

Additional observations from a re-analysis of the deposited data

How the results depend on the processing

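The number of receptors called stayed within 1.5 times in 15 of 18 alternatives for induction of C cells, 14 of 18 for induction of P cells, 6 of 18 for P against C cells at day −2, 18 of 18 at day 1 and 15 of 16 for the difference between the responses. No log2 ratio of a receptor that was called changed sign. Induction of P cells called 4 receptors by DESeq2 (Nr1h3 and Esrra added, both lower), against 19.0% of all genes. It called 1 (Pparg) when fitted with its 2 conditions alone, against 9.57%. P against C cells at day −2 called 1 receptor (Nr2f1) with at least 10 counts in every library, against 6.11% of all genes. It called 1 with a replicate block (4.48%), 1 at an adjusted p under 0.05 (4.51%), and 0 when fitted with its 2 conditions alone (0.637%). Induction of C cells called 5 without the ratio threshold, against 35.6% of all genes. With 1 library left out the counts ranged from 1 to 2 for induction of C cells, 1 to 4 for induction of P cells, 0 to 6 for P against C cells at day −2, 0 to 0 at day 1 and 0 to 8 for the difference between the responses. The correlations of same-numbered deviations between conditions ran from −0.36 to 0.21. With 2 replicas per condition, these values cannot settle whether the numbers pair the cultures. A replicate block with the day 1 numbers crossed, chosen after seeing the data, called 2, 3, 2, 0 and 0. The shares of all genes called were 21.1%, 18.8%, 7.69%, 4.2% and 2.35%. With library totals in place of TMM the median log2 ratio over all genes was −0.11 in C cells and 0.19 in P cells on induction, −0.18 at day −2 and 0.11 at day 1, against −0.01, 0.02, 0.01 and 0.01 with TMM. The sign depended on the scaling in 2 of 50 ratios of receptors, Nr1h2 in the P/C ratio of day −2 and the difference between the responses of Nr2f2. Of the values of single receptors under the alternatives, 829 kept their call, 24 were newly called and 19 lost it. The cause of these changes was not tested. For the difference between the responses no fit with 2 conditions alone could be made. Depth limits Ppara, at 1 to 15 counts per library, and Nr1h3, at 39 to 154.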
